A study of Mus musculus with 16 samples.

Results

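The genes described here are markers of hepatocytes around the central vein, followed in livers of mice on chow and on high-fat diet (HFD), with and without knockdown (KD) of the receptor FGFR4. They are *Glul*, *Oat*, *Slc1a2*, *Rhbg*, *Axin2*, *Lgr5*, *Tbx3*, *Lect2*, *Rgn* and *Slc13a3*, 10 of the 52143 genes of the count table, and all 10 passed the filter on low counts. The set was chosen by a value of these data, the rise of *Glul* with HFD in saline-injected mice, and the comparison of HFD with Chow is therefore given for the whole set as a description without a test. Diet was compared again in the mice with FGFR4 KD, whose 8 libraries are not those of that comparison, although the genes were proposed with earlier results of all libraries known.

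Liver RNA came from 16 male C57BL/6J mice, 4 in each of 4 groups. Saline-injected groups are called Chow and HFD, and those given siRNA are called Chow/FGFR4 KD and HFD/FGFR4 KD. Mice were bought at 6 weeks of age and were fed chow (Mouse Diet 9F) or a 60% fat diet (D12492) for 12 weeks. Every 2 weeks they received a subcutaneous injection of 3 mg/kg of an siRNA against *Fgfr4*, or 0.9% saline. The siRNA was joined to N-acetylgalactosamine, a sugar that hepatocytes take up, which directs the KD to hepatocytes. No control mouse received another siRNA, so loss of FGFR4 and the injection of an siRNA as such cannot be told apart.

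Blood enters the liver lobule at the portal tract and leaves at the central vein, and hepatocytes along this path express different enzymes. Endothelial cells of the central vein release Wnt ligands and R-spondins, which stabilise β-catenin in the hepatocytes next to them and switch on pericentral genes through TCF factors. Glutamine synthesis sits in these last cells, where it captures ammonia that the urea cycle of the periportal cells has left behind.

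The promoters of the genes in the set are shown because TCF factors are known to bind short motifs there. A RefSeq promoter window in GRCm38.p6, 250 bases before to 50 bases after the start, was found for 6 of the 10 genes, *Glul*, *Oat*, *Slc1a2*, *Axin2*, *Lect2* and *Slc13a3*. The motif ATCAAAG was searched on both strands, together with its close relatives AACAAAG (the second such motif), TACAAAG (the third) and TTCAAAG (the fourth). A match was found in 2 of the 6 windows (33.3%), against 5544 of 32851 windows of all genes (16.9%). Below are the 250 bases before the start, read 5′ to 3′ on the strand of the gene, of *Lect2* (chr13:56548539-56548788, minus strand) and *Slc1a2* (chr2:102706188-102706437, plus strand), which hold a match in capitals, and of *Glul* (chr1:153899679-153899928, plus strand), which holds none.
Lect2: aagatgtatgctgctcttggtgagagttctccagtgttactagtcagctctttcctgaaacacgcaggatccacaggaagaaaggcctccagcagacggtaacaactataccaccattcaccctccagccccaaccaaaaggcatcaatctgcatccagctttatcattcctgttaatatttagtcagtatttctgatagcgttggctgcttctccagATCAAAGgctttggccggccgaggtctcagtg
Slc1a2: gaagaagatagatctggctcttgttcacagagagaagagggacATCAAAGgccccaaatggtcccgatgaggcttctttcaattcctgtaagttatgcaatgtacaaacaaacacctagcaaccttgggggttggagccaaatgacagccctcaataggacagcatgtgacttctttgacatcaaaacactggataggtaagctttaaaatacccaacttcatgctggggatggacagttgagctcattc
Glul: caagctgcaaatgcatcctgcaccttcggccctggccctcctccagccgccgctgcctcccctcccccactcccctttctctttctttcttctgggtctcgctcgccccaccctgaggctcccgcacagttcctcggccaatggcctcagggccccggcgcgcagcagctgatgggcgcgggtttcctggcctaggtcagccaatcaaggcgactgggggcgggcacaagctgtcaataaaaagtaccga
The match was ATCAAAG on the strand of the gene in both cases, with its first base at -32 in *Lect2* and at -207 in *Slc1a2*. A match is a description of letters, and binding was not measured.

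Total counts per library ran from 3445949 to 5976449. *Fgfr4* was at 21.8 to 36.3 CPM (counts scaled to library size with TMM factors) in the 8 saline libraries and at 2.43 to 6.17 CPM in the 8 KD libraries. One library, HFD/FGFR4 KD 1, stood apart. Its score on the first principal component, which orders the libraries by diet, was -6.33, among the chow libraries (-23.2 to -4.84) and away from the other HFD/FGFR4 KD libraries (16.7 to 20.5). Values without it are given beside the members and for the lists where a call changed. A hepatocyte list of 6 matched genes summed to 60076 to 76671 CPM over all libraries and overlapped in the 4 groups. Most of that sum was albumin, with group means of 45543 to 51784 CPM. Of the 6 genes, 4 were called lower with diet in saline-injected mice and 0 higher, with a median log2 difference of -0.35, where 1433 of all 11324 genes were called lower. Under KD 1 was called lower. These are bulk samples, in which fewer cells of a type and less RNA per cell cannot be told apart.

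Per kilobase of exon length, the genes of the set spanned a wide range in Chow. *Rgn* had the highest level at 433 ± 35.8 CPM per kb (SD, n = 4), followed by *Oat* at 262 ± 59.3, *Glul* at 203 ± 17.8 and *Lect2* at 57.5 ± 11.9 CPM per kb. *Slc1a2* (10.4 ± 1.20), *Tbx3* (3.84 ± 1.75), *Rhbg* (2.51 ± 1.40) and *Slc13a3* (2.47 ± 0.503) came next. *Oat* and *Glul* did not differ beyond their spread, and neither did *Tbx3*, *Rhbg* and *Slc13a3*. *Axin2* at 0.912 ± 0.348 and *Lgr5* at 0.470 ± 0.221 CPM per kb were the lowest and also lay within each other's spread, and counts behind single libraries fell to 15 for *Axin2* and 10.1 for *Lgr5*. These genes, and *Rhbg* with 8.32 counts in its lowest library, are the least precise.

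*Glul* (ENSMUSG00000026473; GRCm38 chromosome 1, 153899944 to 153909723, protein-coding) encodes glutamine synthetase. Its levels in Chow were 599, 664, 688 and 741 CPM, and in HFD they were 1042, 1095, 1177 and 1243 CPM. In Chow/FGFR4 KD they were 561, 570, 652 and 682 CPM, and in HFD/FGFR4 KD they were 905, 1050, 1132 and 1192 CPM. All 8 libraries from HFD-fed mice lay above all 8 from chow-fed mice, and the lowest of them was HFD/FGFR4 KD 1. The means were 673 ± 59.1 CPM in Chow and 1139 ± 88.8 CPM in HFD, a log2 difference of 0.76 (SE 0.101) that chose the set and is not tested. With FGFR4 KD the diet change was 0.79 (SE 0.100, limma-voom with Benjamini-Hochberg adjusted p 0.000711), or 1.74-fold. Without HFD/FGFR4 KD 1 it was 0.87 (adjusted p 0.000205 in limma-voom). The genes were proposed with results of all libraries known, so these p-values are no independent test of *Glul*. Of the 31-base words in *Glul* transcripts 19.67% also occur in other genes, mainly the pseudogene *Glns-ps1*, which held 57.5 counts over all libraries together.

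**Figure D1:**
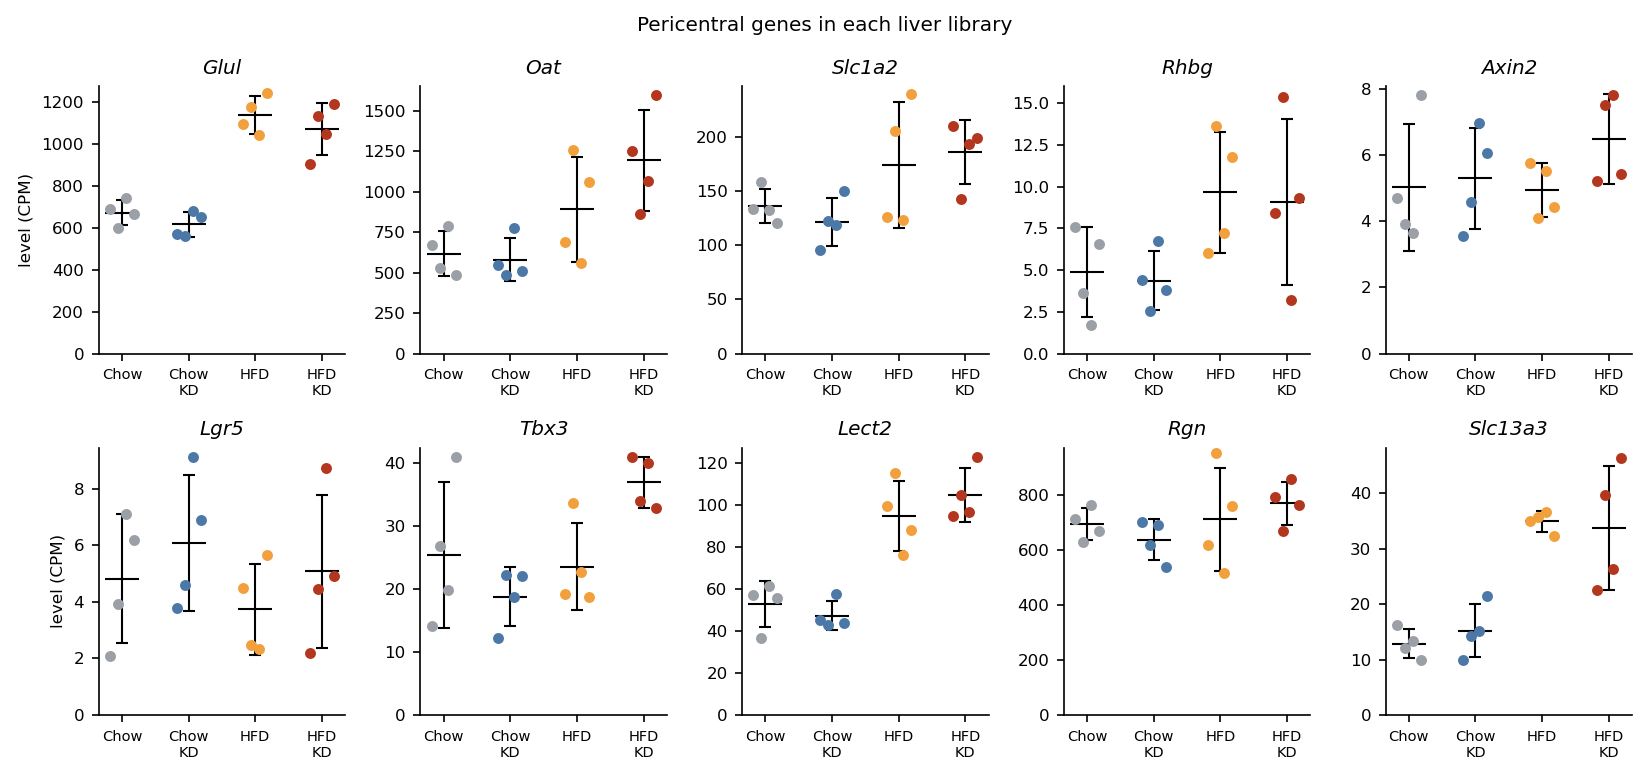
Level of the 10 pericentral genes (CPM, linear axis from 0) in each of 16 liver libraries, with a point for a library, a bar for the group mean and whiskers for the SD (n = 4). *Glul*, *Lect2* and *Slc13a3* of HFD-fed mice lie above those of chow-fed mice in all libraries, whereas *Axin2*, *Lgr5* and *Rgn* overlap in all 4 groups.

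*Oat* (ENSMUSG00000030934; chromosome 7, 132557478 to 132576398) encodes ornithine aminotransferase, which turns ornithine into a precursor of glutamate. Levels were 483, 527, 668 and 790 CPM in Chow and 558, 689, 1058 and 1258 CPM in HFD, so that these groups overlapped. They were 487, 508, 544 and 774 CPM in Chow/FGFR4 KD and 859, 1068, 1249 and 1594 CPM in HFD/FGFR4 KD. The KD groups did not overlap, and *Oat* rose with diet under KD by 1.03 on the log2 scale (SE 0.244, adjusted p 0.032 in limma-voom), from 578 ± 133 to 1192 ± 311 CPM (n = 4), and by 1.0 (adjusted p 0.0423) without HFD/FGFR4 KD 1. In saline-injected mice the difference was 0.48 (SE 0.244).

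*Slc1a2* (ENSMUSG00000005089; chromosome 2, starting at 102658659) encodes a glutamate transporter, known from hepatocytes next to the central vein. Chow libraries had 121, 133, 134 and 158 CPM, and HFD libraries had 123, 127, 206 and 240 CPM. Chow/FGFR4 KD libraries had 95.9, 118, 122 and 150 CPM, and HFD/FGFR4 KD libraries had 143, 193, 199 and 210 CPM. The KD groups overlapped by 1 library on each side, and the log2 change of 0.62 with diet passed the test (SE 0.198, adjusted p 0.0947 in limma-voom), as did the 0.56 without HFD/FGFR4 KD 1 (adjusted p 0.14). The HFD controls fell into a lower pair (HFD 1 and 3) and a higher pair (HFD 2 and 4), and the difference from Chow was 0.29 (SE 0.197). *Oat* and *Rgn* split into the same pairs. Over 7405 genes these pairs were the most alike in HFD, with chi-square over its degrees of freedom of 11.37 and 11.66, against 34.72 to 58.88 for the other pairs. The RefSeq start whose promoter is printed above lies inside the span of the gene in GENCODE M21, so other starts exist.

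*Rhbg* (ENSMUSG00000104445; chromosome 3), an ammonium transporter, ranged from 1.69 to 7.59 CPM in Chow, 2.54 to 6.72 in Chow/FGFR4 KD, 5.99 to 13.6 in HFD and 3.22 to 15.3 CPM in HFD/FGFR4 KD. The log2 difference with diet was 1.08 (SE 0.507) in saline-injected mice. Under KD it was 0.86 with a 95% interval of -0.31 to 2.02 and was not called (adjusted p 0.408 in limma-voom). It was 0.80 (adjusted p 0.456) without HFD/FGFR4 KD 1 and 0.52 without HFD/FGFR4 KD 2. *Rhbg* was called without HFD/FGFR4 KD 3 (1.38, adjusted p 0.152), in DESeq2 (1.06, adjusted p 0.18) and with the replicate block (1.12, adjusted p 0.159). Its counts are uncertain, because 60.83% of its words are shared with *Gm38392*, which held 184 counts over all libraries.

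*Axin2*, *Lgr5* and *Tbx3* are read as targets of Wnt signalling itself. *Axin2* (ENSMUSG00000000142; chromosome 11), a scaffold of the β-catenin destruction complex that feeds back on the pathway, had 5.02 ± 1.91 CPM in Chow, 5.29 ± 1.51 in Chow/FGFR4 KD, 4.95 ± 0.814 in HFD and 6.49 ± 1.36 CPM in HFD/FGFR4 KD (SD, n = 4). Its libraries spanned 3.57 to 7.81 CPM and the groups overlapped throughout. The log2 change with diet under KD was 0.39 (95% interval -0.15 to 0.93, adjusted p 0.416 in limma-voom), so the interval holds both no change and a rise of the size seen for *Glul*. It was 0.49 (adjusted p 0.29) without HFD/FGFR4 KD 1 and 0.18 without Chow/FGFR4 KD 1. In saline-injected mice the difference was 0.05 (SE 0.254).

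*Lgr5* (ENSMUSG00000020140; chromosome 10), a receptor for R-spondins, was at 4.82 ± 2.27 CPM in Chow, 6.09 ± 2.40 in Chow/FGFR4 KD, 3.74 ± 1.62 in HFD and 5.07 ± 2.71 CPM in HFD/FGFR4 KD. It had a mean log2 difference below 0 with diet in both settings, -0.35 (SE 0.456) with saline and -0.20 under KD (95% interval -1.12 to 0.72, adjusted p 0.838 in limma-voom). Without HFD/FGFR4 KD 1, which had the lowest level of its group at 2.19 CPM, the value under KD was 0.14 (adjusted p 0.875). A diet difference in *Lgr5* was not detected.

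*Tbx3* (ENSMUSG00000018604; chromosome 5) encodes a transcriptional repressor. Levels were 14.2, 19.9, 26.9 and 41.0 CPM in Chow and 18.8, 19.2, 22.7 and 33.7 CPM in HFD. They were 12.3, 18.8, 22.1 and 22.2 CPM in Chow/FGFR4 KD and 32.9, 34.1, 40.0 and 41.0 CPM in HFD/FGFR4 KD. All HFD/FGFR4 KD libraries lay above all Chow/FGFR4 KD libraries, whereas the saline groups overlapped. *Tbx3* rose with diet under KD by 1.03 (SE 0.276, adjusted p 0.0516 in limma-voom) and by 0.99 (adjusted p 0.0661) without HFD/FGFR4 KD 1, and in saline-injected mice the difference was -0.02 (SE 0.263). The difference between these 2 diet effects was 1.05 (SE 0.381, limma-voom p 0.0137, adjusted p 0.646) and was not called over all genes, so the diet effects on *Tbx3* were not shown to differ.

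*Lect2* (ENSMUSG00000021539; chromosome 13, starting at 56542464) encodes a protein that the liver secretes into blood. Chow libraries had 36.8, 55.9, 57.2 and 61.5 CPM, and HFD libraries had 76.5, 88.0, 99.7 and 115 CPM. Chow/FGFR4 KD libraries had 43.0, 43.8, 45.2 and 57.8 CPM, and HFD/FGFR4 KD libraries had 94.95, 96.8, 105 and 123 CPM. Libraries from HFD-fed mice lay above those from chow-fed mice without overlap. *Lect2* rose 2.21-fold with diet under KD, a log2 change of 1.15 (SE 0.160, adjusted p 0.00115 in limma-voom) and of 1.20 (adjusted p 0.00144) without HFD/FGFR4 KD 1, and the difference in saline-injected mice was 0.84 (SE 0.156).

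*Slc13a3* (ENSMUSG00000018459; chromosome 2, starting at 165405028) encodes a sodium-dependent transporter of dicarboxylates. Its levels were 9.94, 12.0, 13.4 and 16.2 CPM in Chow and 32.3, 35.0, 35.6 and 36.6 CPM in HFD. They were 9.92, 14.2, 15.1 and 21.5 CPM in Chow/FGFR4 KD and 22.5, 26.4, 39.6 and 46.4 CPM in HFD/FGFR4 KD. The lowest library on HFD, HFD/FGFR4 KD 1, was still above the highest on chow. *Slc13a3* rose with diet under KD by 1.16 (SE 0.239, adjusted p 0.0176 in limma-voom) and by 1.32 (adjusted p 0.00484) without HFD/FGFR4 KD 1, and the difference with saline was 1.44 (SE 0.236).

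*Rgn* (ENSMUSG00000023070; chromosome X), or regucalcin, a calcium-binding lactonase of hepatocytes, had the highest level per kilobase of the set and moved little. Its means ran from 638 ± 75.6 CPM in Chow/FGFR4 KD to 772 ± 78.3 CPM in HFD/FGFR4 KD, with 695 ± 57.5 in Chow and 713 ± 188 CPM in HFD (SD, n = 4). The log2 change with diet under KD was 0.28 (95% interval -0.04 to 0.59, adjusted p 0.311 in limma-voom), and with saline it was 0.00 (SE 0.148). Under KD *Rgn* was at 0.26 (adjusted p 0.368) without HFD/FGFR4 KD 1, and was called with library totals as the scaling (0.43, adjusted p 0.154) and with only the groups compared in the fit (0.27, adjusted p 0.226).

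Counted over the set, 6 of 10 genes rose with diet under KD at the threshold of the study (p under 0.05 and adjusted p under 0.25 in limma-voom), namely *Glul*, *Oat*, *Slc1a2*, *Tbx3*, *Lect2* and *Slc13a3*, and 0 fell. Of all 11324 genes tested, 10.1% were called higher in that comparison. At an adjusted p under 0.05, 4 of the 10 remained, *Glul*, *Oat*, *Lect2* and *Slc13a3*. At that threshold 351 of all 11324 genes were called in either direction. In 5 genes all HFD/FGFR4 KD libraries lay above all Chow/FGFR4 KD libraries, which was so in 5.93% of all genes. The median log2 change of the set was 0.82, against -0.009 for all genes tested. These counts and the median include *Glul*, whose rise with diet chose the set. Leaving out HFD/FGFR4 KD 1 gave 6 called genes again. In the saline comparison, which chose the set, 4 of 10 were called higher (*Glul*, *Rhbg*, *Lect2* and *Slc13a3*) where 13.3% of all genes were, and 3 did not overlap where 8.33% of all genes did, with a median of 0.39. The rise of *Glul* in this comparison chose the set, so these last counts are a description and nothing is read from them.

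**Figure D2:**
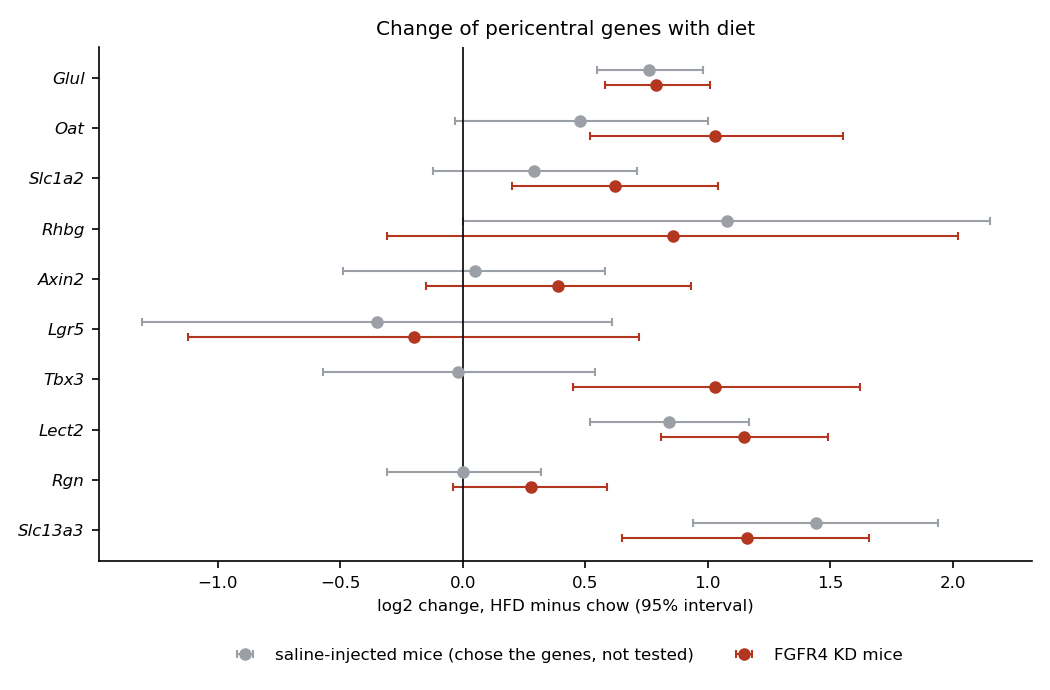
Log2 change from chow to HFD of the 10 pericentral genes with its 95% interval, in saline-injected mice (grey, which chose the genes) and in FGFR4 KD mice (red), 4 libraries a group. Under KD the intervals of *Glul*, *Oat*, *Slc1a2*, *Tbx3*, *Lect2* and *Slc13a3* lie above 0 and those of *Rhbg*, *Axin2*, *Lgr5* and *Rgn* hold 0.

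FGFR4 KD itself was compared with saline within each diet. On HFD, 0 of 10 genes were called by limma-voom, edgeR or DESeq2, where limma-voom called 3.14% of all genes in either direction. At an unadjusted p under 0.05 in limma-voom there was 1 gene of the set, against 1244 of all 11324 genes. That gene was *Tbx3*, with 23.6 ± 6.96 CPM in HFD and 37.0 ± 4.09 CPM in HFD/FGFR4 KD (n = 4) and a log2 difference of 0.69 (SE 0.246, limma-voom p 0.0127, adjusted p 0.303). It was called in 1 of 8 fits without a library, that without HFD 2 (adjusted p 0.147). *Glul* changed by -0.10 with an interval of -0.31 to 0.12, and its groups overlapped. The other genes lay between -0.26 for *Rhbg* (-1.13 to 0.61) and 0.47 for *Lgr5* (-0.47 to 1.41), with *Oat* at 0.46 (-0.06 to 0.98) and *Axin2* at 0.39 (-0.10 to 0.88). Without HFD/FGFR4 KD 1 again 0 of 10 were called by limma-voom, with *Rhbg* at -0.32, *Glul* at -0.02, *Tbx3* at 0.64 (adjusted p 0.492) and *Lgr5* at 0.82 (adjusted p 0.604). No member had groups without overlap, against 6.49% of all genes.

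On chow, 0 of 10 genes were called by limma-voom, edgeR or DESeq2, and limma-voom called 1 gene in all, 0.00883% of those tested. In limma-voom 0 members had an unadjusted p under 0.05, against 519 of all 11324 genes. Changes ran from -0.36 for *Tbx3* (95% interval -0.98 to 0.25) to 0.32 for *Lgr5* (-0.62 to 1.27), and *Glul* was at -0.13 (-0.34 to 0.08). Groups without overlap were seen in no member and in 2.52% of all genes. The KD effects on the 2 diets differed in 0 of 10 genes by any of the 3 tools, and limma-voom called 0.0353% of all genes. At an unadjusted p under 0.05 in limma-voom there was 1 member (*Tbx3*), against 765 of all 11324 genes. For the difference between the KD effects *Glul* had an interval of -0.27 to 0.33. KD on HFD and the saline diet comparison share the HFD libraries, and KD on chow shares the Chow libraries with it.

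**Figure D3:**
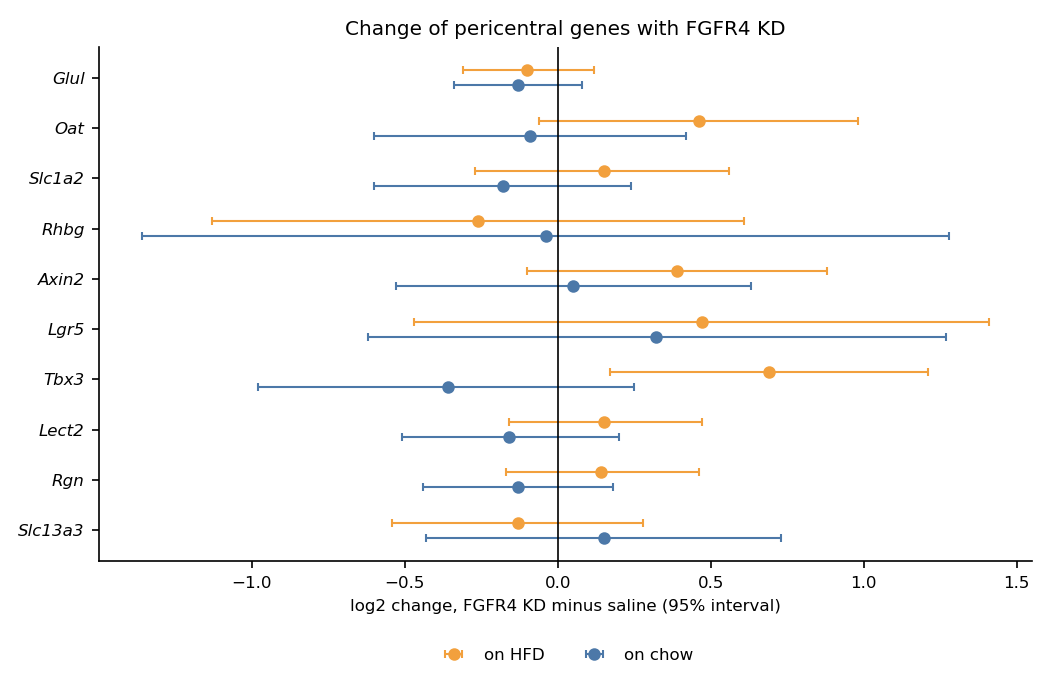
Log2 change from saline to FGFR4 KD of the 10 pericentral genes with its 95% interval, on HFD (orange) and on chow (blue), 4 libraries a group. The interval of *Tbx3* on HFD (0.17 to 1.21) lies above 0, and all others hold 0.

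A list of 24 other pericentral genes, many of them enzymes and some of them regulators such as *Nr1i3* and *Ahr*, did not move one way. Under KD 10 of 24 rose with diet and 2 fell, with a median log2 change of 0.23. Of all 11324 genes tested, 1148 (10.1%) were called higher and 1145 lower in that comparison, which holds for the lists below as well. *Cyp7a1*, which starts bile acid synthesis, rose by 2.72 (SE 0.352, adjusted p 0.000755 in limma-voom), from 34.8 ± 13.5 to 224 ± 74.5 CPM (n = 4). *Gulo*, an enzyme of vitamin C synthesis, rose by 0.90 (adjusted p 0.00097). *Cyp2c29*, a drug-metabolising cytochrome, went the other way by -0.94 (SE 0.169, adjusted p 0.00889). *Cyp7a1* had a log2 difference of -0.28 (SE 0.347) with diet in saline-injected mice, and its KD effects on the 2 diets differed by 3.01 (SE 0.495, adjusted p 0.0764 in limma-voom). That call was lost without HFD 1 (2.94, adjusted p 0.256), with library totals as the scaling (2.87, adjusted p 0.276) and in edgeR without HFD/FGFR4 KD 1 (3.07, adjusted p 0.335). In saline-injected mice 5 of the 24 were called higher and 7 lower, where 1506 (13.3%) of all genes were called higher and 1433 lower.

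Wnt feedback genes and targets outside the set were represented by 7 of 10 genes that passed the filter. Of these 7, 3 rose with diet under KD, where 10.1% of all genes were called higher. *Rnf43*, a ligase that removes Wnt receptors from the cell surface, had 5.90 ± 2.10 CPM in Chow/FGFR4 KD and 15.6 ± 1.41 CPM in HFD/FGFR4 KD (n = 4) and rose by 1.46 on the log2 scale (SE 0.317, adjusted p 0.0214 in limma-voom). *Ccnd1*, the cell cycle gene cyclin D1, rose by 1.44 (adjusted p 0.0648) and *Tnfrsf19*, a receptor of the TNF family, by 1.79 (adjusted p 0.0992). *Znrf3* (0.18), *Notum* (0.04), *Tcf7* (0.03) and *Nkd1* (1.25, SE 0.706) were not called. In saline-injected mice the same list had 3 genes called higher, where 13.3% of all genes were.

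On the side of the signal, 3 of 12 Wnt ligands and R-spondins passed the filter and 0 were called under KD. *Rspo3*, the R-spondin of the central vein, had a log2 change of 0.17 (SE 0.438, adjusted p 0.871 in limma-voom), and *Wnt2* and *Wnt9b* were too low to be tested, with at most 2.82 and 1.04 CPM in a library. Among 9 receptors tested, *Fzd8* rose by 1.5 (adjusted p 0.065) and *Fzd4* by 0.82 (adjusted p 0.142), and 0 fell. *Fzd4* lost its call without Chow/FGFR4 KD 4 (0.60) and without HFD/FGFR4 KD 2 (0.76), 3 (0.78) or 4 (0.78). Of 15 intracellular components *Bcl9* rose by 0.87 (adjusted p 0.152) and *Dvl3* fell by 0.32 (adjusted p 0.164). *Bcl9* lost its call without Chow/FGFR4 KD 1 (0.62) or 3 (0.76) and without HFD/FGFR4 KD 3 (0.85) or 4 (0.69), and *Dvl3* without Chow/FGFR4 KD 3 (-0.26) or 4 (-0.31) and without HFD/FGFR4 KD 4 (-0.25). *Dvl3* also lost it with library totals as the scaling (-0.18, adjusted p 0.507) and with no filter on low counts (-0.32, adjusted p 0.289). *Ctnnb1*, which encodes β-catenin, was at -0.02 (SE 0.0764). None of 9 secreted inhibitors passed the filter.

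**Figure D4:**
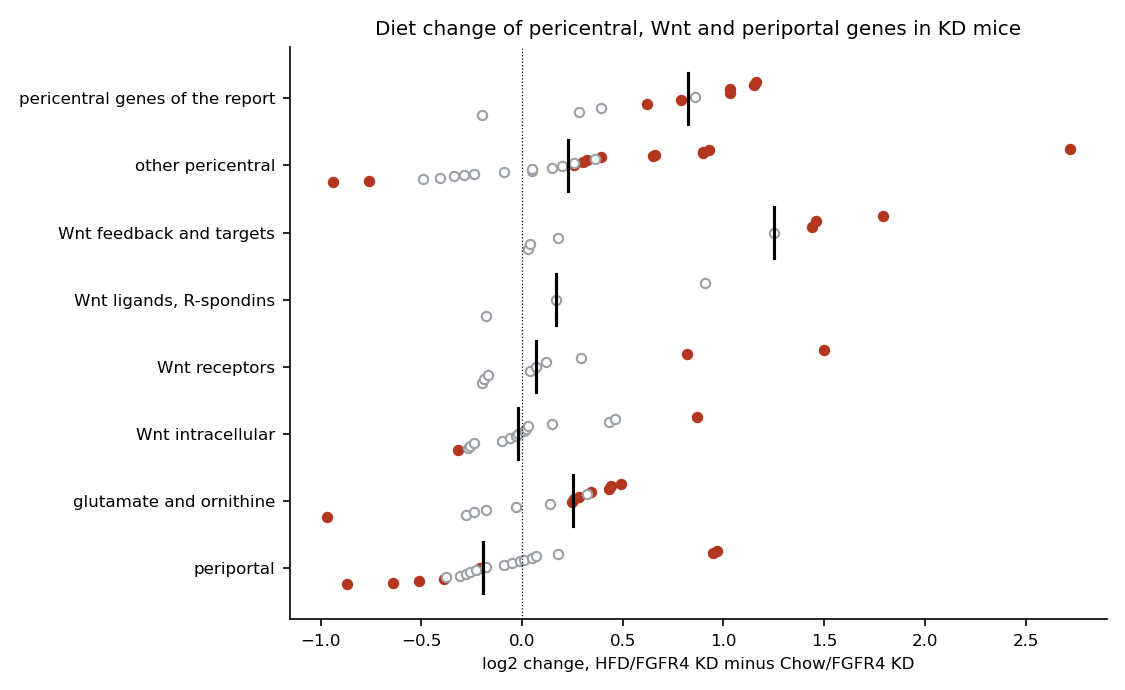
Log2 change from Chow/FGFR4 KD to HFD/FGFR4 KD of each gene tested in the set and in 7 lists, with filled points for genes called by limma-voom and a black line at the median of each list. The median is 0.82 in the set, 0.23 in other pericentral genes and -0.19 in periportal genes.

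Genes of the periportal end and of glutamate metabolism were set beside these. Of 20 periportal genes 5 fell and 2 rose with diet under KD, with a median of -0.19. Of all 11324 genes tested, 1145 were called lower and 1148 (10.1%) higher. *Cyp2f2* fell from 1166 ± 108 to 643 ± 112 CPM (n = 4; log2 change -0.87, SE 0.114, adjusted p 0.000785 in limma-voom) and *Arg1*, the last enzyme of the urea cycle, changed by -0.39 (adjusted p 0.0165; with library totals as the scaling -0.23, adjusted p 0.286, and not called), while *Hsd17b6* rose by 0.97 (adjusted p 0.0565). In the glutamate and ornithine list, 7 of 14 genes tested rose and 1 fell. *Prodh2* rose by 0.49 (adjusted p 0.0241), *Glud1* by 0.28 (adjusted p 0.0721) and *Aldh4a1* by 0.34 (adjusted p 0.0737), and *Slc38a2*, an amino acid carrier of the cell surface, fell by 0.97 (adjusted p 0.0427). The genes named from these lists as rising or falling under KD were also called without HFD/FGFR4 KD 1, in the same direction.

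KD on HFD called 6 of the 24 other pericentral genes, 5 higher and 1 lower, where 3.14% of all genes were called in either direction. *Cyp7a1* rose by 2.45 (SE 0.326, adjusted p 0.00276 in limma-voom) and *Cyp2c29* by 0.68 (adjusted p 0.102), and *Aldh1a1* fell by 0.46 (adjusted p 0.102). *Cyp2c29* lost its call without HFD 3 (0.53) and without HFD/FGFR4 KD 3 (0.63) or 4 (0.59), and *Aldh1a1* without HFD/FGFR4 KD 1 or 3 (-0.42 each). Both lost it with library totals as the scaling (0.61 and -0.53). Of the Wnt receptors *Fzd4* fell by 0.73 (adjusted p 0.246) and *Lrp5* rose by 0.35 (adjusted p 0.248). Each kept its call in 2 of 8 fits without a library, *Fzd4* without HFD 2 or HFD/FGFR4 KD 2 and *Lrp5* without HFD 1 or HFD/FGFR4 KD 1, and the others gave -0.83 to -0.53 for *Fzd4* and 0.28 to 0.38 for *Lrp5*. Of 11 other settings *Fzd4* was called in 2 and *Lrp5* in 4. Among periportal genes *Cdh1* rose by 1.54 (adjusted p 0.018). On chow no gene of these lists was called by limma-voom.

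Clock genes moved with diet in the same KD libraries. The summed levels of each cell type list overlapped between Chow/FGFR4 KD and HFD/FGFR4 KD, which does not show equal cell content. Log2 changes were above 0 in 7 of 7 macrophage, 7 of 8 stellate cell and 3 of 8 endothelial markers tested. Single markers were called, where 10.1% of all genes were called higher and 1145 of 11324 lower. Summed levels of 8 macrophage markers were 63.9 to 86.3 CPM in Chow/FGFR4 KD and 79.3 to 148 CPM in HFD/FGFR4 KD, with 2 of 7 tested called higher, and those of 8 stellate cell markers were 84.6 to 137 and 113 to 207 CPM, with 1 of 8 called higher. Endothelial markers (83.3 to 149 against 115 to 146 CPM) and markers of the central vein endothelium (5.79 to 13.5 against 7.37 to 12.7 CPM) overlapped, with 1 of 8 endothelial markers called higher (*Stab2*, 0.52, adjusted p 0.0345 in limma-voom) and 0 of 4 of the central vein. Cholangiocyte (39.5 to 57.3 against 35.3 to 61.1 CPM), lymphocyte (1.10 to 3.66 against 0.886 to 3.90 CPM), neutrophil (0.229 to 3.86 against 0 to 1.30 CPM) and erythroid markers (247 to 799 against 278 to 982 CPM) overlapped too, with *Sox9* of the cholangiocyte list (-0.78, adjusted p 0.161) and *Alas2* of the erythroid list (-0.37, adjusted p 0.163) called lower. Adipocyte markers were 1.10 to 12.5 against 9.32 to 31.7 CPM, with *Cfd* called higher (3.22, adjusted p 0.0752). In group means the rise lay in *Cidec* and *Cfd*, at 10.45 and 5.74 CPM in HFD/FGFR4 KD, and *Cidec* was not called. *Adipoq*, *Plin1* and *Retn* were too low to be tested. Their means were 0.352, 0.209 and 0.227 CPM in Chow/FGFR4 KD. In HFD/FGFR4 KD they were lower, at 0.0415, 0.0648 and 0.111 CPM, within their spread. Of the hepatocyte list *Fgb* was called lower (-0.75, adjusted p 0.0393). *Mpo* of the neutrophil list and *Lep* of the adipocyte list were at 0 in every library. Of 11 clock genes tested 6 rose and 4 fell with diet under KD, with *Tef* at 1.16, *Cry1* at -1.33, *Per3* at 2.77 and *Dbp* at 4.34 (adjusted p 0.00488 in limma-voom to 0.0249). In saline-injected mice, summed macrophage markers were 52.1 to 60.8 CPM in Chow and 96.4 to 176 CPM in HFD. Those of stellate cells were 98 to 143 and 162 to 315 CPM, and those of adipocytes 2.10 to 25.6 and 36.6 to 96.6 CPM. Of the markers tested 7 of 7, 5 of 8 and 2 of 2 were called higher, where 13.3% of all genes were. Sums of the other cell type lists overlapped between Chow and HFD. The part of these cells and of the time of day in the changes of the pericentral genes was not tested.

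The genes whose level was most like that of *Glul* over the 16 libraries were *Mat1a* (Pearson r 0.96), *Gpc1* (0.95), *Agxt2* (0.95) and *Adora1* (0.94). In the set, *Lect2* (0.94) ranked 5 and *Slc13a3* (0.92) ranked 13 of the genes tested, and *Oat* had r 0.75, *Tbx3* 0.39, *Rgn* 0.37, *Axin2* 0.23 and *Lgr5* -0.12. These values hold the difference between the diets, and the genes share libraries and scaling. Taken as deviations from the group means, where diet is removed, the most alike were *Washc2* (0.87), *Homer2* (0.85), *Aes* (0.84), *Mras* (0.81) and *Cyp2b10* (0.81), and in the set *Lect2* (0.69), *Slc13a3* (0.62), *Lgr5* (0.56) and *Oat* (0.54) came first and *Tbx3* (-0.16) last. Among pairs of the set, *Oat* and *Rgn* had the highest r at 0.79 and *Oat* and *Axin2* the lowest at -0.41. Both *Oat* and *Rgn* were higher in HFD 2 and 4 than in HFD 1 and 3, pairs that also differed over all genes compared. All are descriptions over 16 libraries.

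**Figure D5:**
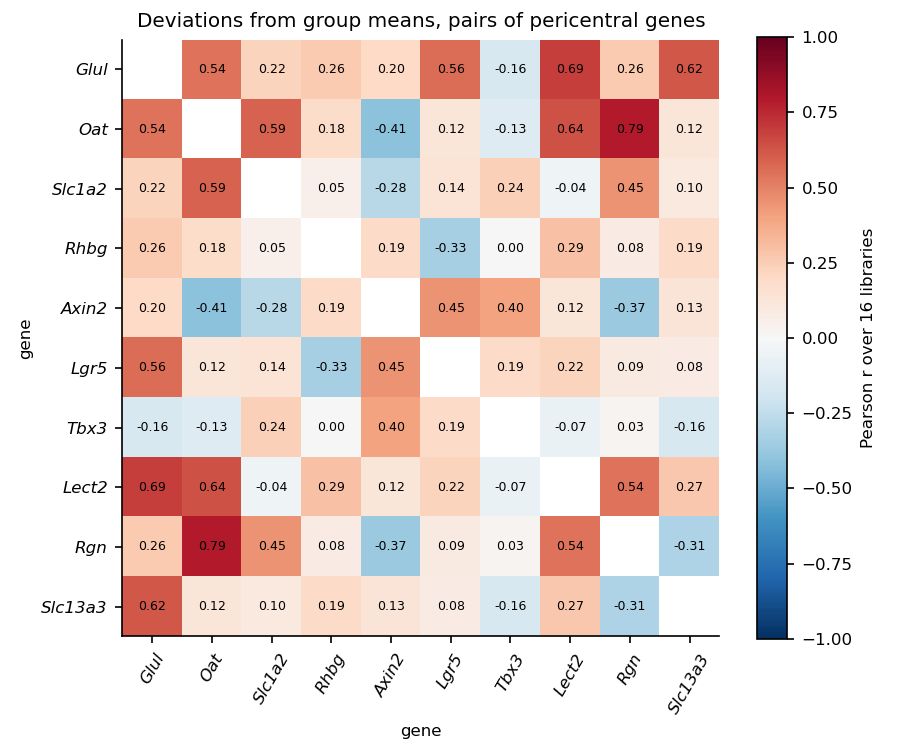
Pearson r between pairs of the 10 pericentral genes over 16 libraries, computed on log2 CPM after the mean of each group was removed, with red for positive and blue for negative values. The highest value is that of *Oat* and *Rgn* (0.79) and the lowest that of *Oat* and *Axin2* (-0.41).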

How the data were processed

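Estimated counts for liver libraries of 16 mice were used as deposited. According to the study's methods the authors pseudoaligned reads with kallisto and then used tximport to obtain gene sums, so the values are expected counts with fractions. The submitters' processing notes name fastp, kallisto and GRCm38. Versions, transcriptome release and strand are not given in the sources used here. The labels name an mRNA library kit, whereas the methods also describe a targeted panel assay.

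A gene under 1 CPM in over 4 libraries was dropped, and 11324 genes were tested. After TMM scaling (edgeR 4.0.16), limma-voom (limma 3.58.1, R 4.3.3) was fitted to all 16 libraries with 4 group means. A gene was called at p under 0.05 and a Benjamini-Hochberg adjusted p under 0.25, and 0.05 was used beside it. CPM values carry the TMM factors, and a prior count of 2 was used for log2 CPM. Exon lengths and positions are from GENCODE M21 (GRCm38), and promoters from RefSeq. Shared sequence is given as the portion of a gene's 31-base words that other genes also hold. All members could be fitted, so the exact permutation test planned for genes below the filter was not needed. Total counts per library limit the precision. The limma-voom p-values set a group difference against the spread between mice within groups, pooled over all 4 groups and moderated across genes. Those for diet under KD thus also use the spread of the saline libraries.

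The members and the lists of genes were chosen with earlier results of these data known. Named are the members, up to 4 called genes a list with the smallest p, genes a sentence on a member turns on, and the 5 genes most like *Glul* by Pearson r. Some genes that the rule names are not reported here. *Wnt2*, *Wnt9b*, *Mpo*, *Lep*, *Cidec*, *Adipoq*, *Plin1*, *Retn* and the Wnt genes that were not called were named after their values were seen. Of 192 list genes 191 were matched. Other settings were DESeq2 1.42.0 on rounded counts, the quasi-likelihood test of edgeR, each library left out, a replicate block, the compared groups alone, a stricter threshold, and different scalings, filters and weights. Added after the data were seen were removal of Gm42418 and Lars2 before scaling, and edgeR without HFD/FGFR4 KD 1. Gm42418 held 13.4% to 22.7% of the counts in Chow libraries, 14.8% to 20.6% in Chow/FGFR4 KD and 11.1% to 15.6% in HFD. It held 22.3% in HFD/FGFR4 KD 1 and 13.7% to 16.2% in the rest of that group. With both genes removed, 6 members were called with diet under KD. The fits were tested on simulated counts. No 2 libraries of a group were alike within sampling noise (chi-square over its degrees of freedom 7.59 to 72.56). Figures were drawn in Python.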

Additional observations from a re-analysis of the deposited data

Results flagged for a closer look

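In the group Chow/FGFR4 KD, *Lect2* was at 57.82 CPM in library 3, far from the other 3 libraries of the group (43.0 to 45.2 CPM), with a gap to the nearest of them over the range of the group above Dixon's critical value for 4 samples. This was 1 of 40 groups of values examined (10 genes in 4 groups), where chance flags about 1 in 20 groups, or 2 here. The log2 change of *Lect2* with diet under KD was 1.24 without that library (adjusted p 0.00144 in limma-voom to 0.00715 over the 8 fits without a library).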

How the results depend on the processing

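The count of members called with diet under KD, 6, lay between 4 (adjusted p under 0.05) and 7 under the other settings and was 6 to 7 when a library was left out. *Glul*, *Oat*, *Lect2* and *Slc13a3* were called in each of these. In saline-injected mice the count of 4 ranged from 3 to 6. With KD on HFD the count of 0 became 1 (*Tbx3*) with library quality weights and with only the groups compared, and was 0 to 1 when a library was left out. On chow and for the difference between diets it was 0 throughout. The following signs turned, all in values that were not called and whose intervals hold 0, and the cause was not tested. *Lgr5* with diet under KD was 0.06 in edgeR without HFD/FGFR4 KD 1 and ran from -0.59 to 0.14 without a library. With KD on HFD *Rhbg* ran from -0.59 to 0.27 and *Slc13a3* from -0.29 to 0.03 without a library, and *Slc13a3* was 0.09 in that edgeR fit. With KD on chow the ranges without a library were -0.24 to 0.04 for *Oat*, -0.52 to 0.27 for *Rhbg*, -0.09 to 0.27 for *Axin2*, -0.06 to 0.58 for *Lgr5* and -0.03 to 0.37 for *Slc13a3*, and *Axin2* was -0.05 with quality weights. For the difference between diets they were -0.02 to 0.11 for *Glul*, -0.55 to 0.31 for *Rhbg* and -0.24 to 0.53 for *Lgr5*. There, scaling by library totals gave -0.09 for *Glul* and -0.07 for *Lgr5*, and *Rhbg* was 0.08 in edgeR, 0.09 in DESeq2, 0.01 with quality weights, 0.14 with the replicate block and 0.11 in edgeR without HFD/FGFR4 KD 1.

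Scaling by library totals moved the median of all genes by 0.29 with diet under saline and by 0.14 under KD, and of its calls under KD 1888 were higher and 391 lower, against 1148 and 1145 with TMM. The upper quartile gave 1393 and 875. With library totals and with only the groups compared *Rgn* was also called under KD, giving 7. Over all genes, KD on HFD called 356 genes in the main setting, 776 with quality weights, 227 in edgeR, 114 with library totals, 222 with only the groups compared and 31 at an adjusted p under 0.05. Without a library it ran from 89 (HFD 3 left out) to 605 (HFD 2 left out), with 169 without HFD 1 and 138, 127 and 95 without HFD/FGFR4 KD 1, 3 and 4. For diet under KD the count of 2293 ran from 1189 without HFD/FGFR4 KD 4 to 2546 without HFD/FGFR4 KD 1, with 1512 without Chow/FGFR4 KD 4 and 1486 and 1453 without HFD/FGFR4 KD 2 and 3. Counts of diet under KD at that last threshold were 351 against 2293. For the difference between diets DESeq2 called 62 genes. Same-numbered libraries of different groups had deviations that correlated from -0.29 to 0.24 and the labels do not pair them. With the replicate block the members called were 4 in saline-injected mice, 7 with diet under KD (adding *Rhbg*) and 0 in the other comparisons. *Axin2*, *Lgr5* and *Rhbg* had the fewest counts, and the part of depth in their spread was not tested.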
